A study of Mus musculus with 20 samples.

Results

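Expression in mouse liver was compared between 5 HIRA KO and 5 Rosa26 control livers, all harvested 3 weeks after injection, out of 20 libraries in the series. The samples were chosen by the guide and the time in their titles, and 22867 of 55421 genes in the count table had at least 10 counts in total over the series and were tested. Wildtype C57BL/6 mice, labelled female, received AAV8 by retro-orbital injection at 6 months of age, whereas the study's text calls the mice of this time course male in 1 place and female in another. The vector of both groups carried SaCas9, a Cas9 from Staphylococcus aureus, behind the Tbg promoter, which is active in hepatocytes, and a U6-driven guide RNA. The guide was directed either to Hira or to Rosa26, a locus used as a neutral target. Both groups therefore shared the virus, the nuclease and a cut in hepatocyte DNA. RNA came from whole liver, so it also holds transcripts of cells other than hepatocytes, and fewer cells of a type cannot be told apart from less RNA per cell. The time of day at harvest is not given in the sources used here. The other 10 libraries, 5 per guide at 6 months after injection, served as a reference.

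HIRA is the core subunit of a histone chaperone complex with UBN1, UBN2, CABIN1 and ASF1A, which places the histone variant H3.3 on chromatin outside of replication. H3.3 protein is encoded by a pair of genes, H3f3a and H3f3b. The circadian clock of the liver is a feedback loop in which ARNTL (BMAL1) and CLOCK bind E-box elements and drive Per, Cry, Nr1d1, Nr1d2, Dbp, Tef and Ciart, while NR1D1 and NR1D2 repress Arntl, Npas2, Nfil3 and Cry1 through ROR elements (ROREs). The E-box and RORE arms therefore peak at opposite phases of the day, and the output factors DBP, TEF and HLF act on D-box elements of many metabolic genes.

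Promoter windows of 3 called clock genes are shown first, because CLOCK and ARNTL act on the E-box and the output factors on the D-box. Windows ran from 250 bases before to 50 bases after the annotated start (300 bases, RefSeq, build GRCm38.p6), and 37 of the 45 genes called at 3 weeks had at least 1. The letters searched on both strands were CACGTG for the E-box, and TTATGTAA, TTACGTAA and TTACATAA for the D-box, and ROREs were not searched. Capitals mark the matches. The Ciart window (chr3:95882179-95882478, minus strand) held 3 E-boxes, with first bases 116, 58 and 44 bases before the start. Tef had E-boxes in windows of different starts, of which 1 is printed (chr15:81802423-81802722, plus strand), with the E-box 127 bases before the start, and the other (chr15:81811164-81811463) had it 138 bases before. The Per3 window (chr4:151044616-151044915, minus strand) held 2 D-boxes, 205 and 158 bases before the start. The Slc13a3 window (chr2:165473148-165473447, minus strand), shown as that of a called gene outside the clock lists, held 1 E-box 154 bases before its start.
Ciart: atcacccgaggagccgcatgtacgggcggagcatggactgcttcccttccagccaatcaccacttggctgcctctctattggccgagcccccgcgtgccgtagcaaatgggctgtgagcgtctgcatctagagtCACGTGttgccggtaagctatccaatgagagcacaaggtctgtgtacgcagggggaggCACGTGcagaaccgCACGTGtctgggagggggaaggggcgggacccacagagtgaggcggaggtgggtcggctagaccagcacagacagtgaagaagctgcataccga
Tef: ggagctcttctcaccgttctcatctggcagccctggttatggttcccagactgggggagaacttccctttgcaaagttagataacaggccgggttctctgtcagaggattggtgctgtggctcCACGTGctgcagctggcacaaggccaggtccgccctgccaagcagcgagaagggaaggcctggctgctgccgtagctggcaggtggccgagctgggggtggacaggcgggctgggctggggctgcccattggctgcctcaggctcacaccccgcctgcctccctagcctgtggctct
Per3: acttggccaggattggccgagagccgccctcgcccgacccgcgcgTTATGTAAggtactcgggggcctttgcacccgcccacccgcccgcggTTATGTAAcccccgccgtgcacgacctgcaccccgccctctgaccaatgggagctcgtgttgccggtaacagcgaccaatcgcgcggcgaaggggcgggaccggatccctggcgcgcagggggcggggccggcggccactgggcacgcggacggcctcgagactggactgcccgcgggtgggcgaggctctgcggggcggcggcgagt
Slc13a3: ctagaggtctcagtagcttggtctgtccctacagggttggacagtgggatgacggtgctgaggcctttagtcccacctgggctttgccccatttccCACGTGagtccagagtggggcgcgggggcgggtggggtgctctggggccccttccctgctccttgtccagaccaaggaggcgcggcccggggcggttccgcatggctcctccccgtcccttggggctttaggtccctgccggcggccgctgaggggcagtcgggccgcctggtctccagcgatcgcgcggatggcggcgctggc
E-box letters stood in the windows of 2 of 7 clock-linked genes with a window (28.57%, Ciart and Tef), of 5 of 30 other called genes (16.67%) and of 8.09% of all 27025 genes with a window. D-box letters stood in those of 1 of 7 clock-linked genes (Per3), of 0 of 30 other genes and of 1.23% of all genes. A match describes these letters only, and the window of Dbp, the called gene with the largest change, held neither motif.

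The libraries of the 3-week groups held 20350408 to 22306176 counts each, with 2.84% to 4.32% from mitochondrially encoded genes. Hepatocyte transcripts were abundant in all 10, with Alb at 75600 to 141000 CPM (counts scaled to the TMM library size) and Hnf4a at 617 to 817 CPM. Among the Rosa26 controls, replicate 2 stood apart by acute phase transcripts and replicate 3 by neutrophil transcripts, as described below with the lists. The library labelled HIRA 6 months replicate 5 had 9 Xist counts and 2041 counts of 4 Y-linked genes, against 6286 to 8436 and 0 to 13 in the other 19 libraries, so its sex label was contradicted. It bore on the 3-week comparison through the shared fit and the count filter, and a fit without it gave 103 genes in place of the 45 described below (43 in place of 26 past both thresholds).

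Hira itself was lower in HIRA KO livers without passing the test. Its transcript stood at 6.49, 8.54, 7.3, 6.04 and 6.33 CPM in the Rosa26 replicates and at 5.81, 5.95, 4.36, 4.55 and 4.15 CPM in the HIRA KO replicates. The groups did not overlap, and the gap between the lowest control and the highest HIRA KO library was small. The log2 fold change was -0.48 ± 0.14 (SE; edgeR adjusted p 0.197), from a mean of 2.80 ± 0.20 to 2.32 ± 0.24 log2 CPM (SD, n = 5). At 6 months the value was -0.10 (adjusted p 0.794). These values are RNA of whole liver and do not measure protein. By western blot the study reports that HIRA protein was lost in its CRISPR mice.

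At 3 weeks 45 genes passed an adjusted p of 0.05, which is 0.197% of all genes tested, 32 of them higher (0.14%) and 13 lower (0.0569%). Of these, 26 also exceeded a log2 fold change of 1 in size, 18 higher (0.0787% of tested genes) and 8 lower (0.035%). The HIRA KO and Rosa26 groups did not overlap in 615 tested genes (2.69%). Of the 45, 5 had overlapping groups (Arl4d, Polr3gl, Akr1c19, Klf16 and Lpar2), and 7 were gene models without a descriptive symbol. The median log2 fold change of all genes was -0.006, and 999 genes were higher (4.37%) and 1030 lower (4.5%) at an unadjusted p under 0.05. These calls leaned on single livers, with 3 to 30 genes past both thresholds when 1 liver was left out. Car14 alone passed without Rosa26 replicates 2 and 3, and all 45 genes kept their sign in each of these fits. The 45 were picked on these same libraries, so a kept sign adds no support.

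Clock genes were prominent among the calls, with Dbp the called gene of largest change. Of the 9 genes of the E-box group 5 rose, Dbp, Ciart, Per3, Tef and Nr1d2, and none fell. The group had a median log2 fold change of 1.43, against -0.006 for all genes, and all 9 estimates were positive. Dbp (chromosome 7, 45705088 to 45710203), a PAR bZIP output factor, stood at 1.52, 1.60, 2.40, 1.76 and 3.54 CPM in Rosa26 replicates and at 47.6, 38.7, 9.05, 104 and 55.2 CPM in HIRA KO replicates. Every HIRA KO library lay above every control, replicate 3 the least and replicate 4 the most. The log2 fold change was 4.55 ± 0.79 (SE; adjusted p 0.0251), a 23.4-fold rise. Sphk2, whose exons overlap those of Dbp from the other strand, held 250.1% of the counts of Dbp and had a log2 fold change of 0.28 (adjusted p 0.471).

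Ciart (chromosome 3, 95878503 to 95882251), a repressor of ARNTL and CLOCK, was found at 0.456, 0.449, 0.416, 0.676 and 0.279 CPM in controls and at 3.46, 3.70, 1.31, 15.1 and 4.72 CPM in HIRA KO livers. Replicate 3 was again the lowest and replicate 4 the highest of the HIRA KO libraries. Its log2 fold change was 3.62 ± 0.71 (adjusted p 0.0379). Per3 (chromosome 4, 151003652 to 151044665), a period gene, had 2.03, 2.90, 3.05, 2.70 and 5.82 CPM in controls and 14.4, 17.1, 6.15, 39.8 and 20.1 CPM in HIRA KO livers. The lowest HIRA KO library was only just above the highest control. Per3 rose by 2.56 ± 0.53 on the log2 scale (adjusted p 0.0455).

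Tef (chromosome 15, 81802421 to 81826863), a paralogue of Dbp, had 42.2, 42.7, 55.0, 38.5 and 67.8 CPM in controls and 144, 123, 71.9, 199 and 141 CPM in HIRA KO livers. The groups were separated by replicate 3 of the HIRA KO group and replicate 5 of the controls, which lay close together. Tef rose by 1.47 ± 0.29 (adjusted p 0.0412). Nr1d2 (chromosome 14, 18204054 to 18239127), a REV-ERB repressor, had 16.2, 18.1, 32.4, 23.2 and 32.5 CPM in controls and 64.5, 44.5, 41.8, 68.9 and 60.6 CPM in HIRA KO livers. The groups did not overlap, and Nr1d2 rose by 1.19 ± 0.22 (adjusted p 0.03). The remaining E-box genes did not pass. Nr1d1, the other REV-ERB gene, had a log2 fold change of 1.43 ± 0.33 (adjusted p 0.0832), Per1 0.54 ± 0.38, Per2 0.56 ± 0.36 and Hlf 0.16 ± 0.11.

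**Figure D1:**
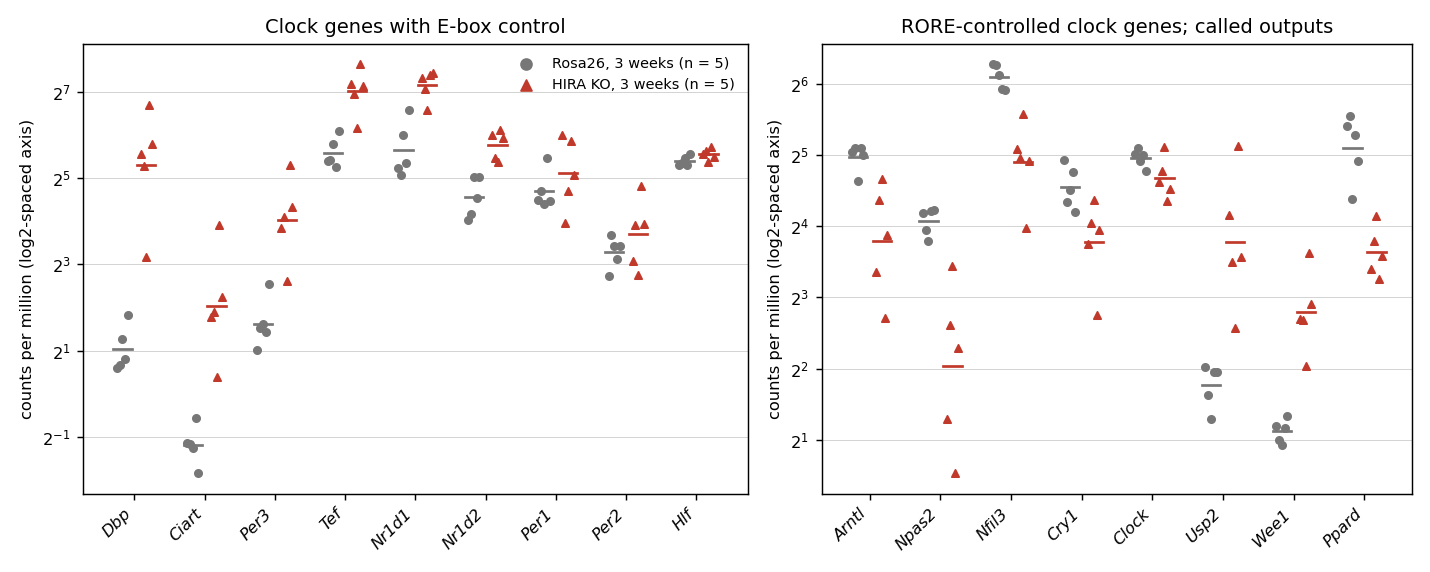
CPM of clock genes in each 3-week library, on a log2-spaced axis, for Rosa26 (grey circles, n = 5) and HIRA KO (red triangles, n = 5), with the geometric mean of each group as a bar. Dbp, Ciart, Per3, Tef, Nr1d2, Usp2 and Wee1 lie higher and Ppard lower in every HIRA KO library than in every control, whereas the groups of Hlf and Per2 overlap.

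None of the 5 genes of the RORE group passed, and all 5 estimates were negative with a median of -1.04. Npas2, a partner of ARNTL, had -1.72 ± 0.55 (adjusted p 0.257), and Nfil3, a repressor at D-boxes, -1.12 ± 0.28 (0.117), with no overlap between the groups in either. Arntl had -1.04 ± 0.39 (0.395), Cry1 -0.71 ± 0.34 (0.562) and Clock -0.27 ± 0.16 (0.681), each with overlapping groups. Of 13 other clock components 0 passed. Bhlhe40, a repressor at E-boxes, had 1.07 ± 0.26 (adjusted p 0.101), Cry2 0.43 ± 0.16 (0.395) and Rora 0.09 ± 0.11. The list of 49 rhythmic liver outputs had a median of 0.03, 2 genes that rose and 1 that fell. The median was 0.12 without Rosa26 replicate 2 and 0.07 without replicate 3.

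The 3 called outputs moved with large ratios. Usp2 (chromosome 9, 44067021 to 44095627), a deubiquitinase, had 4.05, 3.09, 2.45, 3.88 and 3.86 CPM in controls and 17.8, 11.3, 5.95, 34.9 and 11.9 CPM in HIRA KO livers, again with replicate 3 lowest and replicate 4 highest. It rose by 2.24 ± 0.42 (adjusted p 0.0309). Wee1 (chromosome 7, 110122046 to 110143286), the kinase that holds back entry into mitosis, had 2.28, 2.00, 1.90, 2.25 and 2.51 CPM in controls and 6.50, 6.42, 4.11, 12.3 and 7.49 CPM in HIRA KO livers. All HIRA KO libraries were higher, and Wee1 rose by 1.75 ± 0.32 (adjusted p 0.0278). Ppard (chromosome 17, 28232700 to 28301474), a nuclear receptor for fatty acids, had 42.3, 47.0, 20.8, 38.8 and 30.1 CPM in controls and 10.6, 13.9, 17.6, 9.59 and 12.0 CPM in HIRA KO livers. It was the only called gene of the clock lists that fell, by 1.49 ± 0.26 (adjusted p 0.0269). Among the 46 other outputs, Slc45a3 had -0.88 ± 0.19 (adjusted p 0.059), Inmt 0.88 ± 0.20 (0.0788), Insig2 -0.65 ± 0.15 (0.0835) and Cyp2a5 1.00 ± 0.28 (0.19).

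To set clock-linked changes apart from others, each library was given a clock index, the mean centred log2 CPM of the E-box group minus that of the RORE group. The index was -2.44, -2.11, -1.70, -2.02 and -1.5 in Rosa26 livers and 1.05, 0.29, -0.96, 2.58 and 0.88 in HIRA KO livers at 3 weeks. The groups did not overlap, and the HIRA KO livers were the more dispersed. The means were -1.95 ± 0.36 and 0.77 ± 1.28 (SD, n = 5), a difference of 2.72, given without a test because the index was built on genes already known to differ. At 6 months the groups overlapped, with 0.40 ± 0.92 in Rosa26 and 0.78 ± 1.64 in HIRA KO livers. The 3-week Rosa26 livers thus had the lowest mean of the 4 groups and the smallest spread. Whether harvest at another time of day moved with the guide at 3 weeks was not tested, since no time of day was given.

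**Figure D2:**
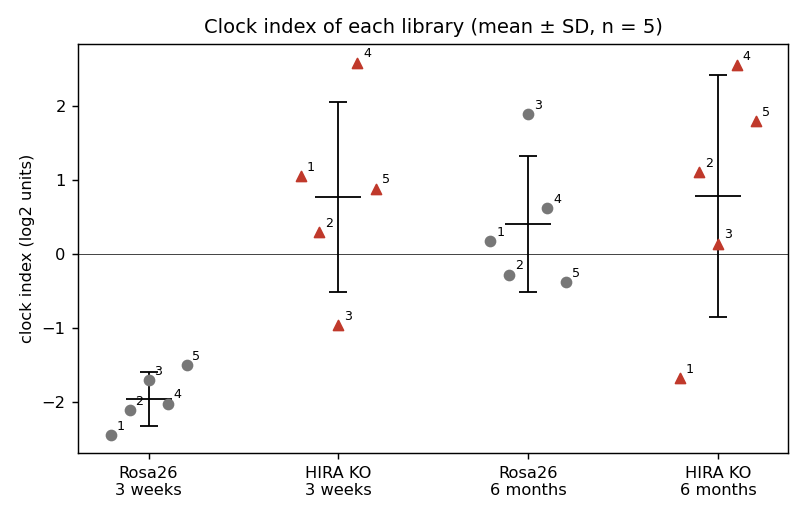
Clock index of each of the 20 libraries, in log2 units, by guide and time, with replicate numbers beside the points and the mean ± SD (n = 5) in black. At 3 weeks the Rosa26 livers lie between -2.44 and -1.5 and the HIRA KO livers between -0.96 and 2.58, and at 6 months the groups overlap.

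The 10 libraries of 6 months, whose group means are not part of the 3-week fold changes, gave each gene a slope on the index within its guide group. Of 20832 genes, 27 had a slope at an adjusted p under 0.05 (0.13%), 14 upward and 13 downward, and 7 of the 27 belonged to a clock list. For a gene of the index the slope was taken on an index without that gene. The change at 3 weeks had the sign of the slope in 24 of the 27, and 11 of these had an unadjusted p under 0.05. No gene with a significant slope moved against it at an unadjusted p under 0.05. Among the 20 genes outside the clock lists, Pnrc1 had -0.66 ± 0.18 at 3 weeks (adjusted p 0.151), the DNA methyltransferase gene Dnmt3b -1.13 ± 0.37 (0.283) and the lactate carrier Slc16a1 -0.47 ± 0.20 (0.482). Lipogenic genes with an upward slope did not pass at 3 weeks either, with Thrsp at 0.92 ± 0.49 and Fasn at 0.54 ± 0.26. Across 12787 genes with a mean of at least 1 CPM, observed and slope-derived changes were related by r = -0.008 (Pearson) and rho = -0.037 (Spearman), given as a description because genes share the libraries and their depth. Of 1472 such genes with an unadjusted p under 0.05, 720 (48.9%) had the sign derived from the slope.

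A gene called at 3 weeks was counted as clock-linked if it was in a clock list or had a significant slope in the direction of its change. This gave 8 clock-linked genes, all members of the lists and all past both thresholds (7 higher, 1 lower), and 37 other genes (25 higher, 12 lower), of which 18 passed both thresholds. The slope itself passed in 4 of the 8 (Dbp, Per3, Tef and Nr1d2) and in 0 of the 37, and at an unadjusted p under 0.05 in 8 of 8 and in 8 of 37. Multiplying the slope by the index difference gave the change derived from the index. For the 8 genes this was 57.7% to 82.7% of the observed log2 change, with 3.14 ± 0.30 (SE) against 4.55 for Dbp, 2.46 ± 0.43 against 3.62 for Ciart and 1.99 ± 0.12 against 2.56 for Per3. It was 1.21 ± 0.13 against 1.47 for Tef, 1.29 ± 0.22 against 2.24 for Usp2 and -0.89 ± 0.15 against -1.49 for Ppard.

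The other 37 genes had a median share of 12.8%, from -42.2% to 74.8%. In 11 of them the slope-derived change had the opposite sign, among them Cdhr2 (-1.16 ± 0.70 against an observed 3.62), Itih5 (-0.43 ± 0.38 against 1.51), Wdr54, Gsta4, Klf16, Kdm6b, H3f3a and Polr3gl. The derived change exceeded 40% of the observed one in 8 genes, Ndrg1 (74.8%), Klhl25 (54%), Jade1 (52.7%), Loxl4 (51%), Arl4d (44.7%), Rnf144b (42.4%), Gldc (41.8%) and Erf (40.3%). Without the library of contradicted sex label 0 of the 37 other genes became clock-linked. The 8 clock-linked genes could not change class there, because all were members of the lists.

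**Figure D3:**
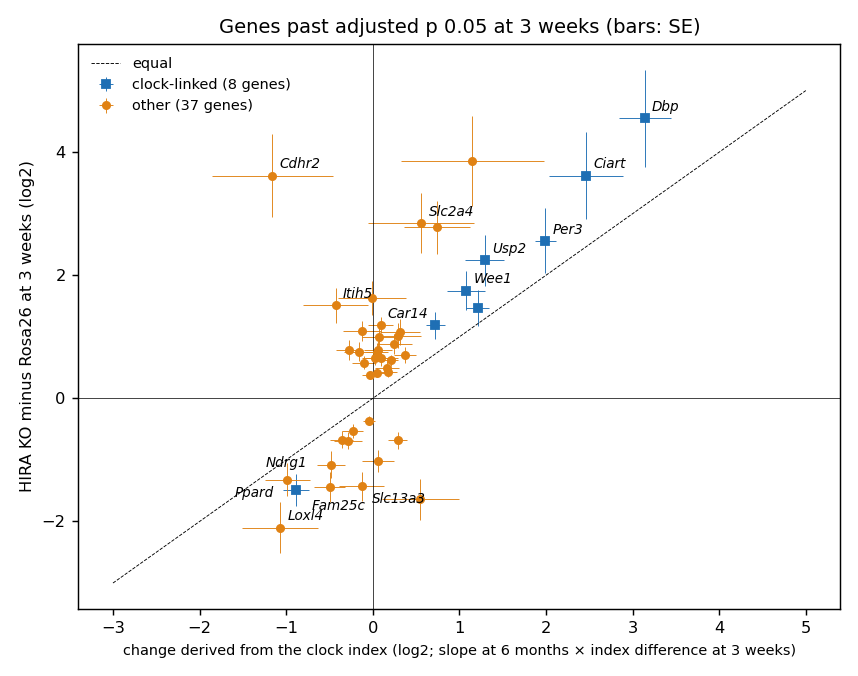
Observed log2 fold change at 3 weeks (HIRA KO minus Rosa26, y axis) against the change derived from the 6-month slope and the 3-week index difference (x axis, log2) for the 45 called genes, with SE bars and a dashed line of equality. The 8 clock-linked genes (blue squares) lie between the line and the vertical axis, with derived changes at 57.7% to 82.7% of the observed ones. For Cdhr2, Slc2a4, Itih5 and Car14 (orange) the derived changes were -31.9%, 19.8%, -28.2% and 7.3% of the observed ones.

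Adjustment gave a second separation. With the clock index added to the edgeR fit as a covariate, 4 genes passed both thresholds (4 past adjusted p alone, 0.0175%), Car14 (1.07 ± 0.17, adjusted p 0.0223), Wdr54 (1.27 ± 0.21, 0.0413), Polr3gl (-1.06 ± 0.15, 0.0104) and Wnk4 (2.64), a kinase of ion transport that had 1.62 ± 0.35 (0.0554) without the covariate. In that fit the 8 clock-linked genes kept a median of 26.2% of their log2 change and 4 of them had an unadjusted p under 0.05. The 37 other genes kept a median of 86.4%, all with the same sign, and 36 had an unadjusted p under 0.05. Since 5 of the 8 were themselves part of the index, their smaller values are in part built in. The SE of Car14 went from 0.13 to 0.17. With the library of contradicted sex label left out of this fit, 12 genes passed both thresholds.

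Among named called genes outside the clock, Cdhr2 rose the most. Cdhr2 (chromosome 13, 54701461 to 54736662), a protocadherin that links the tips of microvilli, had 0.203, 0.399, 0.0924, 0.135 and 0.326 CPM in controls and 4.33, 2.58, 3.05, 2.36 and 2.15 CPM in HIRA KO livers. Every control was under 1 CPM and every HIRA KO liver above it, at 12.3-fold (log2 3.62 ± 0.68, adjusted p 0.0309). Of 13 measured genes of the microvillar adhesion complex Cdhr2 was the only one that passed, with a list median of 0.20 (0.35 without Rosa26 replicate 2) and 12 positive estimates. Its partner Cdhr5 had 0.10 ± 0.10, the scaffold Anks4b 0.35 ± 0.14 (adjusted p 0.451) and the actin bundler Vil1 1.63 ± 0.47 (0.199), while the scaffold Pdzk1, the only negative estimate, had -0.26 ± 0.11 (0.475). Slc2a4 (chromosome 11, 69942539 to 69948188), the insulin-responsive glucose carrier GLUT4 of muscle and fat, had 0.557, 0.749, 0.416, 1.89 and 1.44 CPM in controls and 7.74, 7.73, 3.92, 9.72 and 7.68 CPM in HIRA KO livers. The groups were well apart, and Slc2a4 rose by 2.85 ± 0.49 (adjusted p 0.024). It was the only one of 38 genes of glucose and glycogen metabolism that passed, with a list median of 0.03.

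Itih5 (chromosome 2, 10153571 to 10256529), a heavy chain that binds hyaluronan, had 11.6, 12.6, 9.38, 15.6 and 13.1 CPM in controls and 33.5, 45.4, 28.4, 33.4 and 37.2 CPM in HIRA KO livers. The groups did not overlap, and Itih5 rose by 1.51 ± 0.28 (adjusted p 0.03). Car14 (chromosome 3, 95897768 to 95904691), a membrane carbonic anhydrase, had 23, 21.1, 21.7, 19.0 and 31.4 CPM in controls and 59.2, 51.2, 46.5, 50.4 and 57.9 CPM in HIRA KO livers. The groups lay well apart, and Car14 had the smallest adjusted p of the contrast (1.19 ± 0.13, 0.000106). Aph1a, an overlapping gene of the other strand, held 111.4% of the counts of Car14 and had a log2 fold change of 0.09 (adjusted p 0.863). Wdr54 (chromosome 6, 83149361 to 83156397) had 2.79, 2.20, 2.63, 2.48 and 1.95 CPM in controls and 5.44, 5.11, 5.47, 4.25 and 5.34 CPM in HIRA KO livers. The scatter was small in both groups, and Wdr54 rose by 1.09 ± 0.16 (adjusted p 0.00747). Rtkn, an overlapping gene of the other strand, held 203.4% of its counts and had a log2 fold change of 0.64 (adjusted p 0.151). H3f3a, picked for display by library after its values were seen (chromosome 1, 180800832 to 180813943), a gene for the H3.3 that HIRA deposits, had 70.9, 60.2, 60.7, 66.3 and 61.7 CPM in controls and 87.1, 79.3, 83.8, 82.5 and 84.4 CPM in HIRA KO livers. All HIRA KO libraries were above all controls by a modest margin, and H3f3a rose by 0.38 ± 0.07 (adjusted p 0.0309).

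H3f3a was the only called member of the HIRA complex and H3.3 list (1 of 7). The second H3.3 gene, H3f3b, had -0.11 ± 0.11, Ubn1 0.00 ± 0.07, Ubn2 0.01 ± 0.08, Cabin1 -0.10 ± 0.10 and Asf1a 0.12 ± 0.14, none with an unadjusted p under 0.05. None of 19 other histone chaperones (median -0.03) or of 10 replacement histone variants (0.03) passed, and Daxx and Atrx, which place H3.3 at repeats, had -0.05 ± 0.09 and 0.07 ± 0.08.

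**Figure D4:**
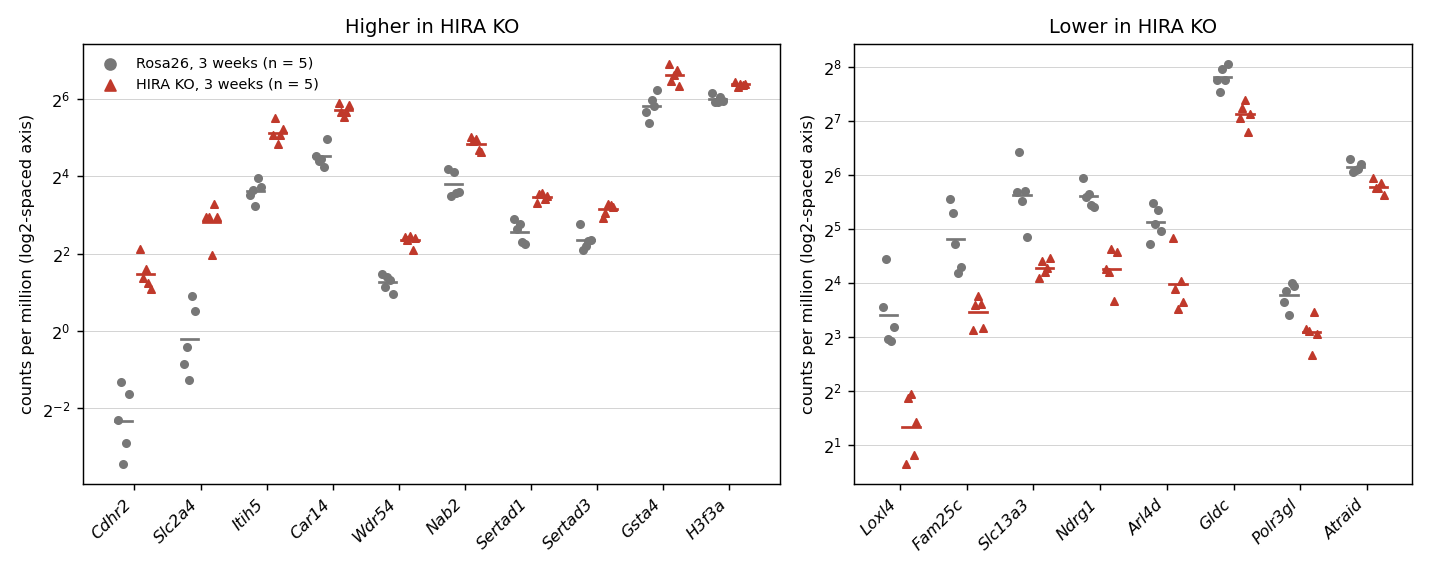
CPM of called genes that were not clock-linked in each 3-week library, on a log2-spaced axis, for Rosa26 (grey circles, n = 5) and HIRA KO (red triangles, n = 5), with geometric means as bars. Cdhr2 and Slc2a4 show the widest gaps among higher genes and Loxl4 among lower genes, while H3f3a is shifted by 0.38 on the log2 scale with little scatter.

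Higher genes of smaller change included regulators of transcription. Of the SERTA domain genes, Sertad1 was higher by 0.88 ± 0.16 (adjusted p 0.0302), Sertad3 by 0.79 ± 0.14 (0.024) and Sertad2 by 0.42 ± 0.08 (0.0423). Nab2, a corepressor of EGR factors, had 18.2, 11.3, 17.3, 12.0 and 12.2 CPM in controls and 32.5, 30, 31.3, 25.6 and 24.7 CPM in HIRA KO livers. The groups did not overlap, and Nab2 rose by 1.02 ± 0.21 (0.0445). Also higher were the zinc finger factors Klf16 and Zfp703 by 0.76 ± 0.16 (0.0445) and 0.66 ± 0.12 (0.0311), and the ETS repressor Erf by 0.43 ± 0.09 (0.0498). The chromatin regulators Jade1, a scaffold of a histone acetyltransferase, and Kdm6b, a histone demethylase, rose by 0.70 ± 0.13 (0.0302) and 0.58 ± 0.11 (0.0412). Stat6, which overlaps Nab2 from the other strand, held 305.9% of its counts and had a log2 fold change of 0.13 (adjusted p 0.551).

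Enzymes and signalling genes made up the rest of the named increases. Gsta4, a glutathione transferase for lipid aldehydes, rose by 0.79 ± 0.16 (adjusted p 0.0423) and was the only one of 48 phase II conjugation genes that passed (list median 0.11). Akr1c19, an aldo-keto reductase, rose by 0.76 ± 0.14 (0.0311), Thnsl2 by 0.50 ± 0.10 (0.0485), the cytokine gene Il18 by 0.66 ± 0.13 (0.0423) and the lysophosphatidic acid receptor gene Lpar2 by 1.00 ± 0.18 (0.0269). Gsta4 and Akr1c19 belong to families of close paralogues, and H3f3a has processed copies, so reads could be divided among copies in counting.

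Fewer genes fell. Loxl4 (chromosome 19, 42593982 to 42612813), a lysyl oxidase that crosslinks collagen, had 11.7, 21.7, 7.77, 7.57 and 9.07 CPM in controls and 1.57, 3.65, 3.87, 1.75 and 2.67 CPM in HIRA KO livers. All HIRA KO libraries were lower, and Loxl4 fell by 2.10 ± 0.41 (adjusted p 0.0391). Fam25c (chromosome 14, 34351881 to 34355433) had 46.8, 39.4, 26.5, 18.3 and 19.7 CPM in controls and 8.80, 12.1, 13.6, 12.2 and 8.97 CPM in HIRA KO livers, and fell by 1.44 ± 0.24 (adjusted p 0.024). Its controls were spread widely, with replicates 4 and 5 close to the HIRA KO range. Slc13a3 (chromosome 2, 165405028 to 165473230), a sodium-coupled dicarboxylate carrier, had 51.4, 85.6, 45.7, 51.9 and 28.9 CPM in controls and 17.1, 21.1, 18.4, 19.3 and 22.0 CPM in HIRA KO livers. The HIRA KO values were tightly grouped, and Slc13a3 fell by 1.43 ± 0.23 (adjusted p 0.0187).

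Ndrg1 (chromosome 15, 66929318 to 66969640), a stress-responsive gene, had 61.4, 48.5, 50.1, 43.7 and 42.6 CPM in controls and 19.2, 18.5, 24.6, 12.7 and 23.8 CPM in HIRA KO livers and fell by 1.32 ± 0.27 (adjusted p 0.0445). The HIRA KO order, with replicate 4 lowest and replicate 3 highest, mirrored that of the rising clock genes, and Ndrg1 had the largest slope-derived share outside the clock lists. Arl4d (chromosome 11, 101665541 to 101667832), a small GTPase, had 26.6, 45, 34.2, 40.9 and 31.2 CPM in controls and 28.5, 14.9, 11.5, 16.4 and 12.6 CPM in HIRA KO livers, where replicate 1 reached into the control range. Arl4d fell by 1.08 ± 0.22 (adjusted p 0.0423). Gldc, the glycine decarboxylase, had 217, 187, 249, 217 and 266 CPM in controls and 133, 151, 168, 111 and 140 CPM in HIRA KO livers. Every HIRA KO liver was lower, and Gldc fell by 0.69 ± 0.14 (adjusted p 0.0445). Further decreases were found for Polr3gl, a subunit of RNA polymerase III (-0.68 ± 0.14, 0.0445), Klhl25 (-0.67 ± 0.14, 0.0445), the ubiquitin ligase gene Rnf144b (-0.53 ± 0.11, 0.0455) and Atraid (-0.36 ± 0.07, 0.0311).

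Pairs of called genes lay close together in 3 places. Car14 and Ciart were 15516 bases apart on chromosome 3, and of 10 tested genes of the pair and the 50000 bases around it, these 2 had an unadjusted p under 0.05. Sertad1 and Sertad3 were 9545 bases apart on chromosome 7, among 9 tested genes of which 2 passed. Tef overlaps the antisense gene model Gm17597, which held few counts and rose by 2.78 ± 0.43 on the log2 scale (adjusted p 0.0107), and if strand was not used in counting the pair cannot be told apart. Gm17597 was named after its values were seen.

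The next genes in rank, given as values and not as calls, were the 15 lowest unadjusted p-values in each direction among genes of at least 1 CPM without overlap. Higher values were seen, among others, for Krt23, a keratin of cholangiocytes (2.10 ± 0.44, adjusted p 0.0522), Wnk4, Cd276 (1.11 ± 0.25, 0.0746), Cyp3a11, the main drug-metabolizing CYP3A enzyme (0.75 ± 0.17, 0.0819), Ap3m1 (0.64 ± 0.15), Lonrf1 (0.60 ± 0.14), Cblc (0.54 ± 0.13), Dcun1d4 (0.53 ± 0.12), Mtx3 (0.52 ± 0.11), Midn (0.48 ± 0.10), Lrp4 (0.45 ± 0.10), Dctpp1 (0.43 ± 0.10), Zmynd8 (0.38 ± 0.08) and Cdc42bpg (0.37 ± 0.08). Lower values were seen for Dio1, the deiodinase that makes active thyroid hormone (-1.5 ± 0.32, adjusted p 0.0541), Gfod1 (-1.12 ± 0.24), Lgalsl (-0.91 ± 0.20), Slc45a3, Zbtb5 (-0.67 ± 0.14), Stat5a, a mediator of growth hormone signals (-0.66 ± 0.14, 0.0522), Dpp9 (-0.60 ± 0.13), Rfxank (-0.59 ± 0.13), Slc25a45 (-0.57 ± 0.13), Lyrm2 (-0.49 ± 0.11), Sh3pxd2a (-0.49 ± 0.11), Bbip1 (-0.45 ± 0.10), Mettl17 (-0.40 ± 0.09), Il4ra (-0.33 ± 0.07) and 1 gene model. In 4 of the 30 the 6-month slope had an unadjusted p under 0.05 and the sign of the change (Gfod1, Lgalsl, Slc45a3 and Rfxank, with slope-derived shares of 62.5%, 71.4%, 66.3% and 55.7%). In 3 others such a slope went against the change, Wnk4 (derived -1.26, slope p 0.000309), Cyp3a11 (slope p 0.0322) and Slc25a45 (slope p 0.0383). Stat3, which overlaps Stat5a from the other strand, held 706.4% of its counts and had a log2 fold change of -0.53 (adjusted p 0.394).

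Gene programs of the liver were examined through 44 lists with 1117 measured entries, some genes being in several lists. For comparison with the list counts, 4.37% of all tested genes were higher and 4.5% lower at an unadjusted p under 0.05 in edgeR. The median log2 fold change of all genes was -0.006. In 36 lists no gene passed. Outside the clock, the 6 lists with a call each had 1, namely H3f3a, Gsta4, Slc2a4, Cdhr2, Gldc (1 of 55 urea cycle and amino acid genes, median -0.07) and Slc13a3 (1 of 23 pericentral genes, median 0.01). Of the 37 other called genes, 31 were in no list.

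The metabolic lists given here had medians between -0.21 and 0.22. For 50 cytochrome P450 genes of families 1 to 4 the median was 0.12. Of these 7 were higher (14%, against 4.37% of all tested genes) and 0 lower at an unadjusted p under 0.05. The 7 included Cyp1a2 (0.49 ± 0.18), Cyp3a11 and Cyp2b10 (0.73 ± 0.34). Phase II genes had 7 of 48 higher (14.6%) and 0 lower, with Gsta2 at 1.35 ± 0.42 (adjusted p 0.238) and Ugt1a1 at 0.32 ± 0.14. Among 26 lipogenic genes the median was 0.22, with 5 higher (19.2%) and 1 lower (3.8%), including Mid1ip1 (0.80 ± 0.22, adjusted p 0.156), the lipogenic factor gene Mlxipl (0.43 ± 0.13, 0.237), the acetyl-CoA carboxylase gene Acaca (0.40 ± 0.12, 0.238) and Agpat2 (-0.48 ± 0.11, 0.0828). Without Rosa26 replicate 2 the median went to 0.06 for P450 genes, to 0.04 for phase II genes and from -0.21 to -0.09 for sterol synthesis. Without replicates 2 and 3 together the higher genes numbered 3 for P450, 4 for phase II and 3 for lipogenesis, with medians of 0.11, 0.02 and 0.19. With the clock index as covariate the lipogenic median was -0.25, that of phase II genes -0.14 and that of the P450 genes 0.00, so these positive medians were not kept in that fit. In the same fit other medians moved down too, sterol synthesis from -0.21 to -0.61, urea cycle and amino acid genes from -0.07 to -0.26, male-biased growth hormone targets from 0.16 to -0.79 and Kupffer cell and macrophage markers from 0.06 to -0.54. Some moved up, among them cholangiocyte markers from 0.01 to 0.26, fetal and imprinted genes from -0.06 to 0.21 and stellate cell markers from 0.05 to 0.16. Without the covariate sterol synthesis had -0.21 (25 genes), fatty acid oxidation and ketogenesis -0.06 (38, and -0.13 without Rosa26 replicate 2) and bile acid genes 0.00 (33).

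Of 23 hepatocyte transcription factors 0 passed and the median was -0.02. Nr0b2 (-0.76 ± 0.28, adjusted p 0.372) and Atf5 (-0.39 ± 0.16) were among 4 lower (17.4%, against 4.5% of all tested genes) at an unadjusted p under 0.05. This count was 3 without Rosa26 replicate 2, 1 without replicate 3 and 2 without both. Periportal genes had a median of -0.01 (23 genes). Urea cycle and amino acid genes had 9 of 55 lower (16.4%) and 1 higher (1.8%) at an unadjusted p under 0.05, with Cbs at -0.32 ± 0.11 and Agxt at -0.38 ± 0.15, and without both control replicates 5 lower and 0 higher. In the growth hormone and IGF axis (16 genes) 5 were lower (31.2%), including Igfbp1 (-1.75 ± 0.61, adjusted p 0.33), Stat5a, Stat5b (-0.27 ± 0.10) and Igf1 (-0.28 ± 0.11), and 2 higher. None of 28 female-biased (median 0.26) and 21 male-biased (0.16) growth hormone targets had an unadjusted p under 0.05. The male-biased median was 0.05 without Rosa26 replicate 2, 0.07 without replicate 3 and -0.01 without both, and the female-biased median 0.19, 0.24 and 0.12.

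Secreted, stress and inflammatory programs had negative medians. Acute phase genes had a median of -0.59. Of these 13 of 24 were lower (54.2%, against 4.5% of all tested genes) and 0 higher at an unadjusted p under 0.05. The 13 included Saa2 (-2.85 ± 1.11, adjusted p 0.425), Lcn2 (-2.58 ± 0.83, 0.266) and Orm3 (-1.99 ± 0.54, 0.163). Their summed level was 11163, 34240, 14541, 11481 and 9985 CPM in Rosa26 replicates and 9338 to 11886 CPM in HIRA KO livers, so replicate 2 of the controls was far above the rest. Without it the median was -0.20 with 5 lower genes, and without both replicates 2 and 3 it was -0.04 with 3 higher and 1 lower, so the lower acute phase values were not kept. At 6 months, in other livers, the median was -0.56. Neutrophil markers had a median of -1.91 with 9 of 13 lower (69.2%), and their summed level was 77.7 CPM in Rosa26 replicate 3, 8.56 to 17.3 CPM in the other 4 controls and 6.34 to 13.3 CPM in HIRA KO livers. Without replicate 3 the median was -0.43 with 2 lower genes, without both replicates -0.16 with 1 lower, and at 6 months -0.76. The ER stress list had -0.20 with 10 of 33 lower (30.3%), including Sdf2l1 (-1.02 ± 0.31) and Calr (-0.49 ± 0.18), and without both replicates -0.14 with 1 lower. Interferon genes had -0.24 with 11 of 43 lower (25.6%), and without both also -0.14 with 1 lower. Of 59 secreted proteins, with a median of -0.16 and 52 negative estimates, 14 were lower (23.7%), among them the fibrinogen genes Fga (-0.69 ± 0.25), Fgb and Fgg. Without both replicates the secreted median was -0.11 with 5 lower. These 3 medians thus moved less than the acute phase and neutrophil medians, while their counts fell. No gene of these 5 lists passed the adjusted test.

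**Figure D5:**
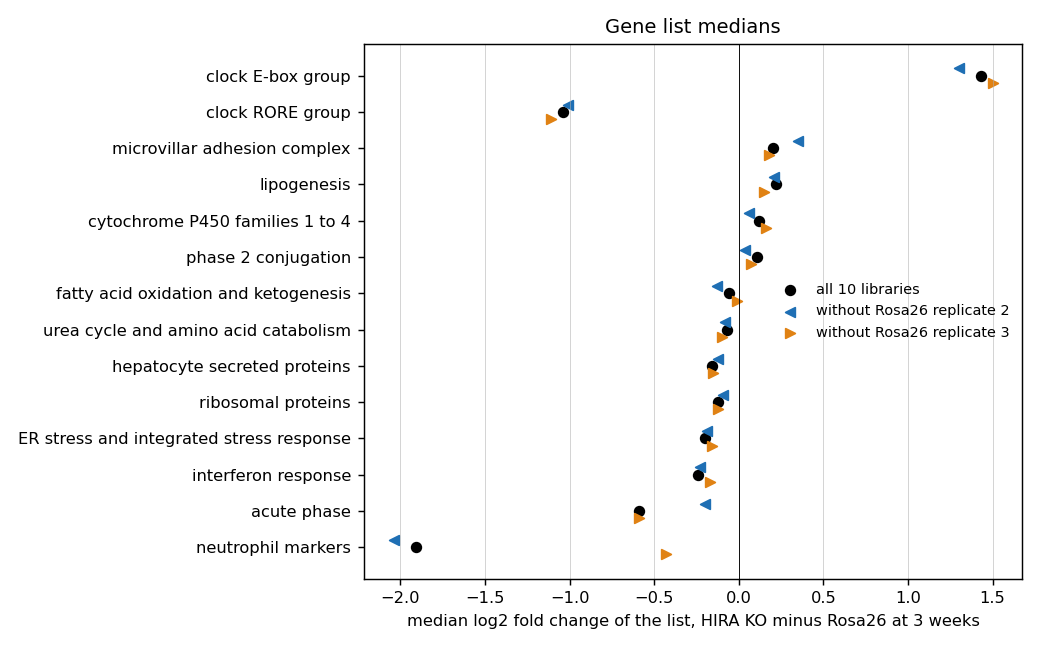
Median log2 fold change (HIRA KO minus Rosa26 at 3 weeks) of 14 gene lists with all 10 libraries (black) and without Rosa26 replicate 2 (blue) or 3 (orange). The clock medians near 1.43 and -1.04 stay in place, whereas the acute phase median moves from -0.59 to -0.20 without replicate 2 and the neutrophil median from -1.91 to -0.43 without replicate 3.

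Markers of other liver cells had no calls. Medians were 0.01 for cholangiocyte markers (20 genes), 0.05 for stellate cell and matrix markers (26), 0.12 for endothelial markers (21), 0.06 for Kupffer cell and macrophage markers (24) and 0.23 for lymphocyte markers (24), with 0 calls in each. Without Rosa26 replicate 2 the lymphocyte median was 0.10 and those of Kupffer and stellate cell markers 0.00, and without replicate 3 the Kupffer median was 0.12 and the endothelial one 0.08. Summed cholangiocyte markers were at 472 to 556 CPM in controls and 441 to 546 CPM in HIRA KO livers, and stellate markers at 556 to 913 and 630 to 843 CPM. Proliferation genes had a median of 0.32 (36 genes), 0.58 without Rosa26 replicate 3 and 0.54 without replicates 2 and 3, where 3 were higher and 0 lower at an unadjusted p under 0.05. With all libraries only Ccnb2 (0.93 ± 0.37) and Mcm7 (-0.25 ± 0.10) reached that p, in opposite directions. The proliferation median was -0.12 with the clock index as covariate. The p53 targets had a median of 0.11 (28 genes), with Cdkn1a at -1.25 ± 0.40 (adjusted p 0.266) and Eda2r at 0.85 ± 0.31. Their median was 0.07 without Rosa26 replicate 2 and 0.16 without replicate 3. Fetal and imprinted genes had a median of -0.06 (21, and 0.05 without Rosa26 replicate 2), and polycomb-repressed genes 0.11 (25, and 0.04 without it). Ribosomal protein genes had a median of -0.12, against -0.006 for all genes. Of their 63 estimates 62 were negative, and 1 gene was lower at an unadjusted p under 0.05. No gene passed among NRF2 targets (median -0.03), heat shock proteins (-0.04), BMP and hepcidin signalling (-0.01), ribosome biogenesis (-0.05), mitochondrially encoded proteins (0.23), erythroid markers (-0.02) or pancreas, fat and gall bladder markers (1.05, 8 genes of low counts).

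The called genes were followed at 6 months, in libraries whose group means are not part of the 3-week fold changes but which shared the count filter, the scaling and the estimate of spread with them. With the 3-week libraries alone, edgeR called 149 genes in place of 45. The guide effect had the same sign in 37 of 37 other genes and in 5 of 8 clock-linked genes, against 80.3% of 1472 genes of at least 1 CPM with an unadjusted p under 0.05 at 3 weeks. Without the library of contradicted sex label it was 36 of 37 and 3 of 8, with Dbp at -0.08 and Tef at -0.07. Of the other genes 10 passed again at 6 months, where 299 genes (1.31%) passed in all, and of the clock-linked genes 0 passed. The 10 were Cdhr2 (4.36 ± 0.69, adjusted p 0.0105), Itih5 (1.87 ± 0.29, 0.0105), Slc2a4 (1.90 ± 0.47, 0.047), Wdr54 (0.96 ± 0.16, 0.0123), Zfp703 (0.61 ± 0.12, 0.0204), H3f3a (0.32 ± 0.07, 0.0292), Polr3gl (-0.63 ± 0.14, 0.0281), Atraid (-0.33 ± 0.07, 0.0252) and 2 gene models. Car14 had 0.37 ± 0.12 (adjusted p 0.139) at 6 months. Dbp had 0.33 ± 0.64, Per3 -0.09 ± 0.47, Nr1d2 -0.01 ± 0.21 and Ppard 0.22 ± 0.26, while Usp2 had 1.46 ± 0.40 (0.0782) and Ciart 1.16 ± 0.60. The difference between the time points passed for 0 genes in edgeR (smallest adjusted p 0.614), with 1514 at an unadjusted p under 0.05. Unadjusted p-values for it ranged from 0.000148 for Ppard to 0.188 for Usp2 among the clock-linked genes, with 0.0004 for Dbp, and that of Car14 was 0.000125. Of the 30 next-ranked genes 29 kept their sign and 7 passed at 6 months, including Krt23 (1.87 ± 0.42, 0.03), Wnk4 (1.99 ± 0.36, 0.0141), Cd276 (1.27 ± 0.26, 0.0204) and Cyp3a11 (1.02 ± 0.17, 0.0138).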

How the data were processed

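Poly-A RNA of mouse liver was sequenced from strand-specific libraries, and sample titles gave the groups and replicate numbers. STAR was used by the authors for alignment to mm10, and the deposited table holds raw counts, whole numbers per gene without normalization. The labels name HTSeq and Cufflinks besides STAR, whereas the methods name HOMER for counting, and use of the strand in counting is not given in the sources used here. The authors also deposited FPKM values with 629498 blank cells, 28812 of them with counts above 0, and these entered only an alternative, log2(FPKM + 1) with limma.

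The main test was edgeR's quasi-likelihood F test (version 4.0.16), with TMM normalization and Benjamini-Hochberg adjustment over 22867 genes with at least 10 counts in total. All 20 libraries shared a model with 4 group means. Thresholds were an adjusted p of 0.05 and, where said, an absolute log2 fold change of 1. Adjusted p-values in the text are from this edgeR fit unless another is named. SEs are the absolute log2 fold change over the square root of F. The CPM values used TMM library sizes, and log2 CPM a prior count of 2. Gene positions are from GENCODE M21 (55240 of 55421 identifiers matched, 54673 with their version). The clock index used 9 E-box and 5 RORE genes. Alternatives were DESeq2 1.42.0, limma 3.58.1 with voom, glmTreat, other filters and scalings, replicate blocks, clock covariates and leaving out libraries. Software was R 4.3.3 and Python 3.11.15 with matplotlib 3.10.9, pandas 2.3.3, scipy 1.17.1 and numpy 2.4.6, and the fits were tested on simulated data.

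Named genes were Hira, the list genes, called genes of at least 1 CPM that are not unnamed gene models, and the next 15 per direction by unadjusted p among genes of at least 1 CPM without overlap between the groups, and a few of these are not reported here. Values by library were given for Hira, the called clock genes and the 6 largest changes in each direction. The samples and lists were chosen with earlier results of these data known. The design text calls the replicates independent, without saying how they were kept apart, and p-values measure the spread between these livers. No pair of replicates had counts that agreed within sampling noise (smallest chi-square per gene 15.11).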

Additional observations from a re-analysis of the deposited data

Results flagged for a closer look

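In 104 groups of 5 libraries checked with Dixon's rule for a single distant sample (critical value 0.71), 6 had such a sample, and chance alone flags about 1 in 20 groups. The neutrophil marker score of Rosa26 replicate 3 was 2.71, the mean centred log2 CPM of its 13 genes, far above the other controls. Kdm6b stood at 4.24 log2 CPM in Rosa26 replicate 2, below the other 4 controls. In the HIRA KO group, Slc2a4 stood at 2.00 log2 CPM and Lpar2 at 1.99 in replicate 3, both below the other HIRA KO livers, Wdr54 at 2.12 in replicate 4, also below, and Zfp703 at 3.97 in replicate 1, above the others. Over the 10 fits that leave out 1 liver, the log2 fold change ranged from 0.51 to 0.64 for Kdm6b, 2.65 to 3.20 for Slc2a4, 0.94 to 1.14 for Lpar2, 1.02 to 1.15 for Wdr54 and 0.57 to 0.70 for Zfp703, and the adjusted p passed in 1, 5, 3, 10 and 1 of them.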

How the results depend on the processing

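The number of genes called at 3 weeks depended on the spread and on single livers. Apart from a filter and a covariate fit, all 45 called genes kept their sign in every leave-one-out fit and under each other test and scaling. The filter of 1 CPM in 5 libraries dropped 2, and the fit with 2 clock covariates turned Tef, which is part of those covariates. The 45 genes were picked on these same libraries, so a kept sign adds no support. Past both thresholds, DESeq2 gave 64 genes (40 higher, 24 lower; 225 past adjusted p alone) on all libraries and 109 (69, 40; 519) on the 3-week libraries. edgeR on the 3-week libraries gave 61 (40, 21; 149), and the fit that omits the library labelled HIRA 6 months replicate 5 gave 43 (31 higher; 103 past adjusted p alone), with all 45 genes among them. limma-voom gave 13 (7 higher; 23), log2(FPKM + 1) 9 (5 higher, 4 lower), and glmTreat 0 in each count (270 at an unadjusted p under 0.05). The filter of 1 CPM in 5 libraries gave 90 genes past adjusted p alone.

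Same-numbered 3-week livers had correlations of 0.063, 0.126, 0.3, 0.034 and 0.008 over 12895 genes. Differently numbered livers were not correlated for reference, so these values cannot decide whether replicate numbers pair the samples. The replicate block gave 27 genes past both thresholds (54 past adjusted p alone, 37 of them shared), and the block within each time point 15 (3 lower; 26). With the block the Hira log2 fold change at 3 weeks stayed at -0.48 (adjusted p 0.181).

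Leaving out 1 liver gave 3 to 30 genes past both thresholds (3 to 18 higher, 0 to 12 lower) and 4 to 57 past adjusted p alone. Without HIRA replicate 4 or 5 it was 3 past both and 4 past adjusted p alone, and the latter were Car14, Wdr54 and the gene models Gm17597 and 1810013L24Rik, named after their values were seen, which passed in all 10 such fits. It was 4 past both without Rosa26 replicate 2, 6 without Rosa26 replicate 1 or 4, 8 without Rosa26 replicate 3, 10 without HIRA replicate 1, 12 without HIRA replicate 2 and 15 without Rosa26 replicate 5. Without Rosa26 replicates 2 and 3 together, chosen after seeing the data, 1 gene passed, Car14 (1 higher, 0 lower, and 1281 at an unadjusted p under 0.05). The Hira log2 fold change at 3 weeks stayed between -0.56 and -0.40, and the clock index difference at 3 weeks between 2.27 and 3.15.

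With the clock index as covariate 4 genes passed (3 higher, 1 lower), and 12 when the library labelled HIRA 6 months replicate 5 was left out, a choice made after seeing the data. With 2 clock covariates 5 passed (2 higher, 3 lower; 6 past adjusted p alone). Estimates that turned under 1 covariate included those of Arntl (0.44), Npas2 (0.20), Cry1 (0.54), Clock (0.25), Per2 (-0.92), Hlf (-0.03), Cry2 (-0.15), Thrsp (-1.04), Fasn (-0.34), Slc16a1 (0.22), Dnmt3b (0.16) and Atf5 (0.02), and, of the clock and called genes followed there, under 2 covariates Tef (-0.02), Arntl (0.07), Nr1d1 (-0.14), Cry1 (0.25), Clock (0.10), Per1 (-0.16), Per2 (-1.16) and Hlf (-0.24). Arntl, Npas2, Cry1, Clock, Per2, Hlf, Tef, Nr1d1 and Per1 are themselves part of the covariates, so their turns are in part built in. For the other genes the cause was not tested. Slopes at 6 months passed for 52 genes without that library and 102 over all 20 libraries.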
